A study of Equus caballus with 8 samples.

Results

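The genes described here encode 10 surface proteins that are used to recognise mesenchymal stem cells (MSCs). They are THY1 (CD90), ENG (CD105), NT5E (CD73), the adhesion molecules ALCAM (CD166), MCAM (CD146) and ICAM1 (CD54), the tetraspanins CD9, CD81 and CD63, and the proteoglycan CSPG4 (NG2). They were chosen by gene symbol, and all 10 had a row among the 15266 named genes of the deposited table. RNA had been sequenced from bone marrow-derived MSCs (BM-MSCs) grown out of the sternal marrow of 4 healthy adult horses, called D, J, L and W, which were Thoroughbreds or Thoroughbred crosses. The marrow of each horse was divided, so that it gave 1 untreated library and 1 library from cells kept in 1 ng/ml recombinant human TGF-β2. The labels give treatment from isolation until passage 3 or 4, whereas the paper's methods give 3 passages of treatment before sequencing. Both groups were grown in the same low-glucose medium with fetal bovine serum, antibiotics and basic fibroblast growth factor. A group therefore held 4 libraries, 1 culture per horse, and a treated and an untreated library of the same letter came from the same animal.

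No single surface protein defines an MSC, and the cells are instead recognised by a panel of proteins that are present together with the absence of blood cell proteins. THY1 and NT5E are held in the membrane by a lipid anchor, and NT5E turns extracellular AMP into adenosine. ENG is a co-receptor for ligands of the TGF-β family. ALCAM, MCAM and ICAM1 belong to the immunoglobulin superfamily and bind cells to each other, and ICAM1 is well known to be induced by inflammatory signals. The tetraspanins CD9, CD81 and CD63 cross the membrane repeatedly, organise other proteins beside them and are abundant on exosomes, while CSPG4 marks the mural cells of small vessels.

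Between 39184554 and 57228675 reads were counted per library, and a marker had between 489 and 196942 reads in any library, so counting error was small beside the spread between horses. Values below are normalized counts, in which the reads of a library are scaled by its size factor. They were not divided by transcript length, so levels are compared between groups and not between genes. The fold changes are on the scale of log2(normalized count + 1) and come from limma across 14907 genes. A gene was called when its Benjamini-Hochberg adjusted p was under 0.05 and its absolute log2 fold change over 1. The untreated library of horse J stood apart, being the highest or lowest of the 4 untreated libraries in 70.8% of the tested genes and in 8 of the 10 markers, against 39.9% to 46.8% of the genes for the other 3 horses. In this library 166 reads of CD3E, a T cell gene, were counted, against 16 in the untreated library of horse W and none in the other 6 libraries.

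THY1 and CD9 were called lower after treatment, and no marker was called higher. These 2 of 10 markers compare with 5.87% of all tested genes called lower and 5.59% called higher. The 10 markers were chosen with earlier results of these data known. The horse as a block in the model added MCAM, giving 3 of 10 markers called lower against 7.31% of all genes, and again no marker called higher against 6.83%. Of the markers with a positive fold change, none had an unadjusted p under 0.05 without the block and 1, ALCAM, had one with it. DESeq2 with the horse in the model called ALCAM higher. The median log2 fold change over the 10 markers was -0.63, beside 0.01 over all tested genes, and 8 of the 10 fold changes were negative. In 6 markers the value was lower in all 4 horses, against 25.6% of all genes. In 3 markers, CD9, CD81 and CD63, every treated library lay below every untreated one, which held for 13.9% of all genes, and no marker showed the opposite, which also held for 13.9%.

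**Figure D1:**
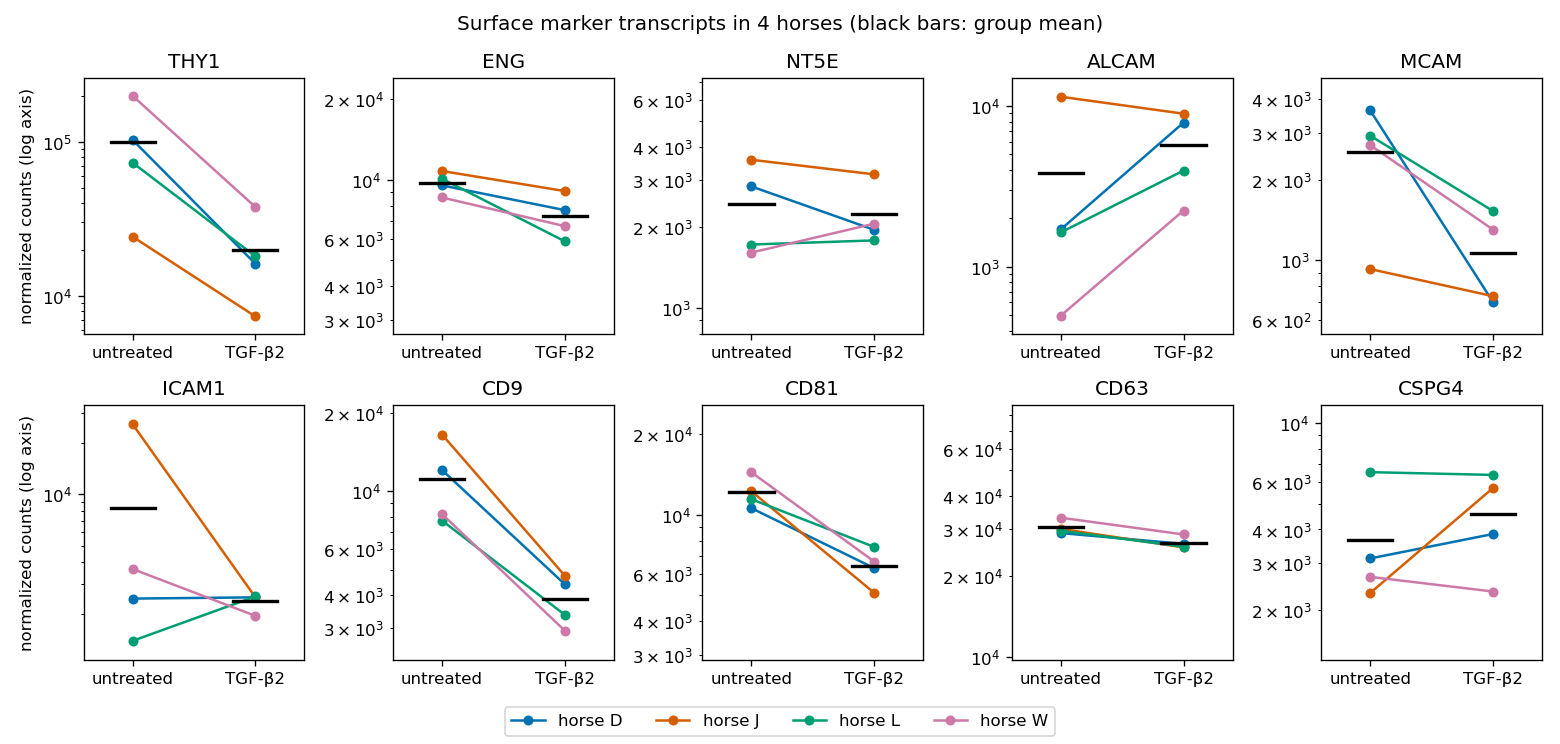
Normalized counts of the 10 markers with and without TGF-β2, 1 panel per gene with a log axis of its own range. Each line joins the 2 libraries of a horse, and black bars are group means. The 4 lines of THY1 and CD9 all descend, whereas those of NT5E, ICAM1 and CSPG4 run in different directions.

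**Figure D2:**
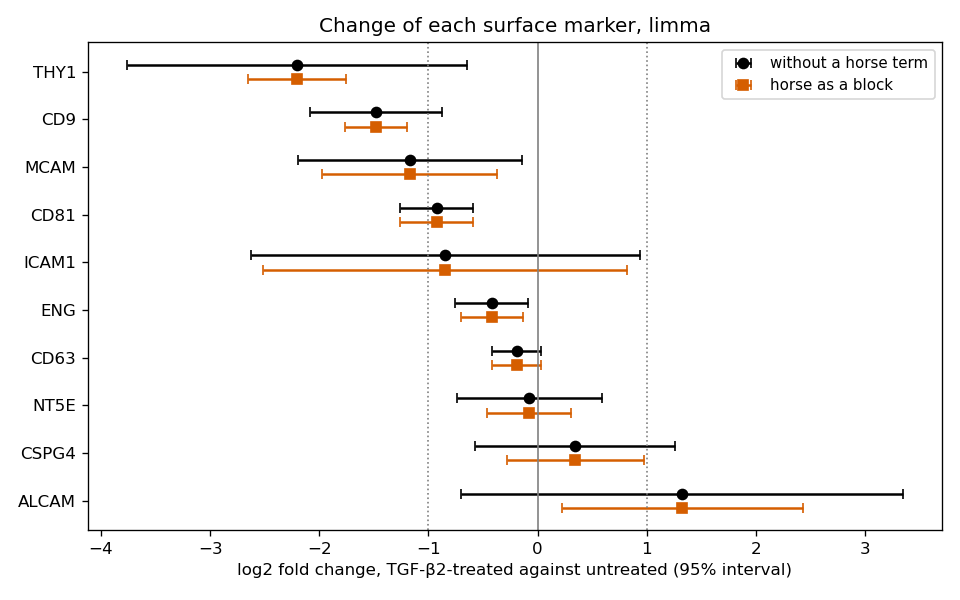
Log2 fold change of each marker, treated against untreated, with its 95% interval from limma without a horse term (circles) and with the horse as a block (squares). Dotted lines mark a log2 fold change of 1 in either direction. The interval of THY1 narrowed from -3.76 to -0.65 without the block to -2.66 to -1.76 with it.

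THY1 had the largest fall of the 10 markers. The untreated libraries of horses D, J, L and W held 103368, 24238, 73428 and 199815 normalized counts, and the treated ones 16155, 7344, 18065 and 37850. The highest treated library, that of W, thus lay above the untreated library of J, and the groups overlapped. Within each horse THY1 was lower after treatment, from 3.30-fold in J to 6.40-fold in D. The mean went from 100212 ± 73983 (SD, n = 4) to 19854 ± 12874, which is 5.05-fold lower, and the log2 change in single horses ran from -2.68 to -1.72. The log2 fold change of -2.21 had a standard error of 0.68 and a limma adjusted p of 0.0494, close to the threshold, or 0.00203 with the horse as a block. Without the block the call was lost when horse D, L or W was left out (limma adjusted p of 0.213, 0.147 and 0.0883), and with the block it was kept with any horse left out. The horses differed 8.24-fold in their untreated level of THY1 and 5.15-fold in their treated level, and kept W as the highest and J as the lowest.

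ENG and NT5E, the markers usually listed beside THY1, moved much less. ENG had 9511, 10761, 10068 and 8571 normalized counts in the untreated libraries of D, J, L and W and 7690, 9059, 5881 and 6701 in the treated ones. It was lower in all 4 horses, but treated J lay above untreated W. The log2 fold change of ENG was -0.42, with an interval from -0.75 to -0.09 and a limma adjusted p of 0.0695, or 0.0409 with the block, and it lay short of the fold threshold in either fit. NT5E had 2841, 3574, 1724 and 1609 normalized counts untreated and 1957, 3153, 1786 and 2063 treated. It was lower in D and J and higher in L and W. Its log2 fold change of -0.08 had an interval from -0.74 to 0.59, or from -0.46 to 0.31 with the block (limma adjusted p of 0.879 and 0.735). With the block, a change of NT5E as large as the fold threshold in either direction thus lay outside its interval. Scaling each library to the same total, which moved the median of all genes by -0.30, gave log2 fold changes of -0.73 for ENG and -0.39 for NT5E.

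Within the horses, the log2 change of THY1 was below that of ENG by 1.25 to 2.37 and below that of NT5E by 1.54 to 2.76. The difference had the same direction in 4 of 4 horses for both pairs. An exact two-sided permutation test of signs over 4 horses cannot give a p below 0.125, which is the value both pairs had, before and after adjustment over 6 such pairs that were chosen after their values were seen.

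Across the 8 libraries, which share 4 donors and carry the treatment difference, THY1 was most like ERLIN2, WWP1 and HADH (Pearson's r of 0.993, 0.992 and 0.986). ENG was most like ANKRD34A, GTF3C5 and MEPCE (0.991, 0.981 and 0.980) and NT5E most like ALKBH4, ATP5F1C and GTPBP6 (0.971, 0.970 and 0.964). With 8 points many genes have a high r, 330 having one over 0.9 with THY1. The likeness is one of shape and not of size. ERLIN2, WWP1 and HADH were not called, with log2 fold changes of -0.36, -0.59 and -0.41, beside -2.21 for THY1.

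The adhesion molecule MCAM had 3627, 927, 2919 and 2691 normalized counts in the untreated libraries of D, J, L and W, and 699, 734, 1528 and 1302 in the treated ones. Untreated J was already near the treated level, whereas the other untreated libraries lay above all treated ones. The mean went from 2541 ± 1147 to 1066 ± 414 (SD, n = 4), and the log2 change ran from -2.37 in D to -0.34 in J. The log2 fold change of -1.17 (standard error 0.45) had a limma adjusted p of 0.0957 without the block and 0.0431 with it, so that limma called MCAM with the block and not without it. It was also called without a block by DESeq2 (log2 fold change of -1.25, adjusted p of 0.0169) and by limma under total scaling (-1.48 and 0.0262). Less the median of all genes, the value under total scaling was -1.18, which was not tested itself. Without horse J MCAM was called in either fit, with a log2 fold change of -1.45. With the block the call was lost when any of the other horses was left out, and edgeR with the horse gave an adjusted p of 0.05003, just above the threshold.

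MCAM and THY1 are near neighbours, with 4 protein-coding genes between them in the RefSeq annotation of the horse assembly TB-T2T. Of the genes between them 2 were in the table. C1QTNF5, which encodes a secreted protein and in other mammals shares a transcript with MFRP, so that its count is uncertain, went from 10562 ± 438 to 4440 ± 634 normalized counts (SD, n = 4). It was called lower, with a log2 fold change of -1.26 and a limma adjusted p of 5.98e-04. RNF26, a ubiquitin ligase gene, had a log2 fold change of -0.48 (limma adjusted p of 0.0829) and was not called.

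ALCAM went the other way in most horses. The untreated libraries of D, J, L and W held 1706, 11419, 1634 and 496 normalized counts and the treated ones 7878, 8952, 3965 and 2236. The treated library was higher in D, L and W, by 2.21, 1.28 and 2.17 on the log2 scale, and lower in J, by -0.35. Untreated J held more than any treated library, and the groups overlapped. The log2 fold change of 1.33 (standard error 0.88) had a limma adjusted p of 0.319, or 0.0721 with the block, so ALCAM was not called in either fit. Without horse J the log2 fold change was 1.88, with a limma adjusted p of 0.0671 without the block and 0.00335 with it, which is a call with the block.

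ICAM1 had 2450, 25616, 1387 and 3647 normalized counts in the untreated libraries of D, J, L and W and 2492, 2494, 2521 and 1943 in the treated ones. Untreated J was 7.02 times the highest of the other 7 libraries, and the treated libraries all lay within the range of the other untreated ones. Its log2 fold change of -0.85 had an interval from -2.63 to 0.93 and a limma adjusted p of 0.477 (0.376 with the block). Leaving out horse J brought it to -0.01, at a limma adjusted p of 0.988.

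The high ICAM1 of untreated J went together with genes of the NF-κB and interferon pathways, which induce ICAM1 in many cells. Of the 19 tested genes of these pathways, 12 were highest of all 8 libraries in untreated J, against 21.0% of all tested genes. That list was chosen with earlier results of these data known, and the examples that follow were picked after their values were seen. IRF1, an interferon-induced transcription factor, had 13523 normalized counts there and 349 to 1965 in the other libraries. TNFAIP3, a feedback inhibitor of NF-κB, had 730 there and 6.96 to 37.9 elsewhere. For BIRC3, a target of NF-κB, the values were 4496 and 172 to 848. BST2, an interferon-induced surface gene that is not among the 19, had 11404 there and 50.03 to 1666 elsewhere. The blood cell gene PTPRC (CD45) had 110 normalized counts in untreated J and 1.19 to 41.5 elsewhere. Of 14 blood cell markers sought, 11 were in the table, and CD34, CD14 and CD79A had no row. The summed level of the 11 ran from 855 to 3352 normalized counts in untreated and from 970 to 1569 in treated libraries. CD68 carried much of the highest sum, with 2437 in untreated J, and had at least 362 in every library. None of the 8 tested markers was called without the block. With the block ITGB2 and LAPTM5, both genes of blood cells, were called lower, with log2 fold changes of -1.48 and -2.22 (limma adjusted p of 0.0347 and 0.0259). Of the 11 genes, 4 were highest in untreated J and 4 in untreated L. The part of any of these in the levels of ICAM1 and ALCAM was not tested.

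**Figure D3:**
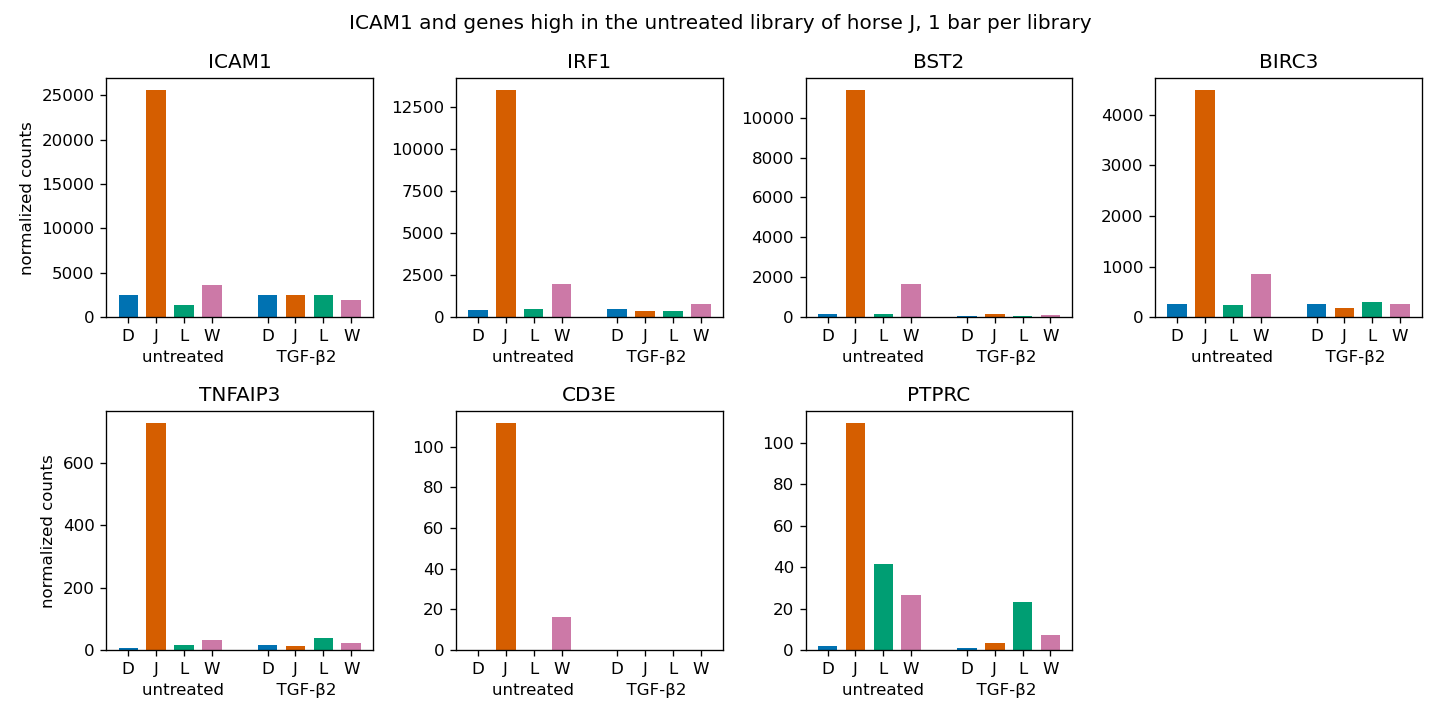
Normalized counts of ICAM1, of IRF1, BIRC3 and TNFAIP3 from the list of NF-κB and interferon genes, and of BST2, an interferon-induced gene outside that list. The blood cell genes CD3E and PTPRC are also shown. Each library has 1 bar, untreated on the left and TGF-β2-treated on the right of each panel. In all 7 panels the bar of untreated horse J is the highest, and in the treated libraries of ICAM1 the 4 bars lie between 1943 and 2521.

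Among the tetraspanins CD9 fell most. It had 12052, 16476, 7716 and 8170 normalized counts in the untreated libraries of D, J, L and W and 4403, 4751, 3364 and 2927 in the treated ones. Every treated library lay below every untreated one. The mean fell 2.88-fold, from 11104 ± 4076 to 3861 ± 858 (SD, n = 4), and the log2 change ran from -1.79 in J to -1.20 in L. The log2 fold change of -1.48 (standard error 0.27) had a limma adjusted p of 0.00694, or 0.00175 with the block. Without the block and without horse D the adjusted p was 0.0561, and with the block CD9 was called whichever horse was left out.

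CD81 had 10586, 12237, 11436 and 14407 normalized counts untreated and 6325, 5114, 7587 and 6692 treated, again without overlap. Its mean was 12167 ± 1639 before and 6430 ± 1025 (SD, n = 4) after treatment. The log2 fold change of -0.92 had a standard error of 0.15 and a limma adjusted p of 0.00439 (0.00770 with the block), so that CD81 passed the p threshold and lay just short of the fold threshold. It was called when every library was scaled to the same total, with a log2 fold change of -1.24, and when horse L was left out. Less the median of all genes, the value under total scaling was -0.93, again short of the fold threshold. At an adjusted p under 0.05 with no threshold on the fold, 3 of 10 markers were lower (THY1, CD9 and CD81), against 11.2% of all genes, and 5 with the block (also MCAM and ENG), against 15.3%.

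CD63 was the steadiest marker. It had 29022, 30087, 29595 and 33117 normalized counts untreated and 26449, 25652, 25809 and 28681 treated. The groups did not overlap, yet the difference was small, from -0.23 to -0.13 on the log2 scale in single horses. The log2 fold change of -0.19 had an interval from -0.42 to 0.03 and a limma adjusted p of 0.198 (0.163 with the block). Under total scaling the log2 fold change of CD63 was -0.50, with a limma adjusted p of 0.0109. Less the median of all genes it was -0.20, a value that was not tested itself. Within a horse, the log2 change of CD9 was below that of CD63 by 1.00 to 1.56 and below that of CD81 by 0.37 to 0.71, and CD81 was below CD63 by 0.39 to 1.03. Each of these differences held in 4 of 4 horses, where the exact sign permutation test gave its smallest possible p of 0.125.

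CSPG4 had 3118, 2317, 6549 and 2661 normalized counts in untreated D, J, L and W and 3847, 5712, 6395 and 2346 in the treated libraries. It was higher in D and J and lower in L and W. The log2 fold change of 0.35 had an interval from -0.57 to 1.26 and a limma adjusted p of 0.580, or 0.340 with the block. Leaving out horse J took it to 0.03, and total scaling of all libraries to 0.04. Less the median of all genes, the value under total scaling was 0.34.

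The markers differed widely in how far the horses lay apart. The SD over horses on the log2 scale was 1.87 for ALCAM and 1.83 for ICAM1 in untreated cells, beside a median of 0.325 over all tested genes, and 0.08 for CD63. Only 2.20% of the tested genes had an untreated SD as large as that of ICAM1. After treatment the SD of ICAM1 was 0.18 and that of ALCAM 0.93, and in 8 of the 10 markers it was smaller than before, which held for 65.9% of all genes. ENG and CD81 were the exceptions, with 0.27 after against 0.14 before for ENG and 0.24 against 0.19 for CD81. For ICAM1 the difference between the groups rests on untreated J, and no test of the spread was made.

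**Figure D4:**
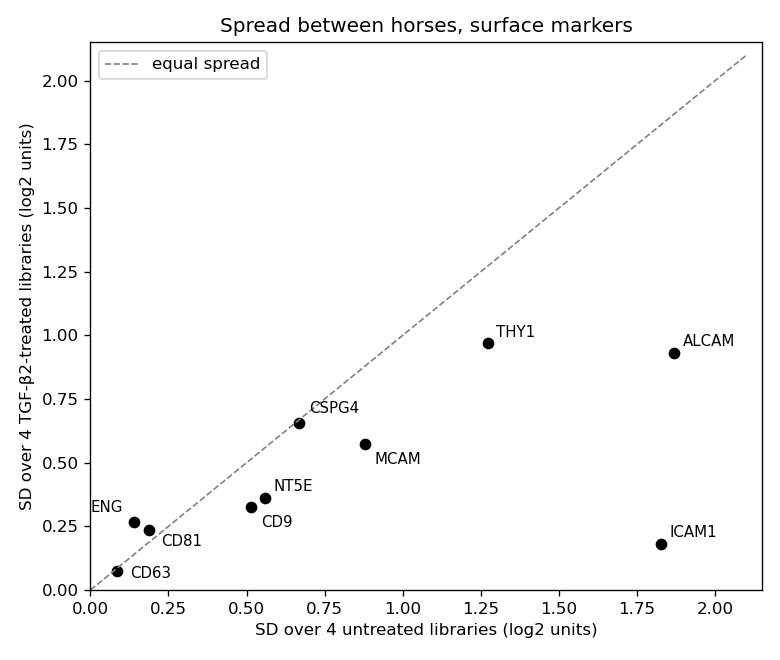
SD over the 4 horses on the log2(normalized count + 1) scale, untreated on the horizontal and TGF-β2-treated on the vertical axis, 1 point per marker. Points below the dashed line had a smaller spread after treatment, and ICAM1 lies furthest below it, at 1.83 and 0.18.

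Related genes were examined by lists, each with the 10 markers left out. Of the 139 genes tested in them, 16 were called higher and 16 lower, or 17 and 22 with the block. That is 11.5% in each direction, or 12.2% and 15.8% with the block, beside 5.59% higher and 5.87% lower over all tested genes (6.83% and 7.31% with the block). The lists were chosen with earlier results of these data known, so these shares cannot be compared with chance. VCAM1 and CD82 count in more than 1 list. Among 28 other surface genes of stromal cells, 6 were called higher and 4 lower, and the median log2 fold change was 0.33, beside 0.01 over all genes. The block added ITGA11 as higher and BST2 as lower, and the 10 calls were 6 without horse D or W. F3, the tissue factor that starts coagulation, rose from a mean of 910 ± 497 (SD, n = 4) to 15562 ± 2226 normalized counts, with a limma adjusted p of 0.00129. PODXL and CDCP1, both membrane glycoproteins, rose by 3.17 and 2.65 on the log2 scale (limma adjusted p of 0.0266 and 0.00133). For PODXL the groups overlapped, with 1090 normalized counts in untreated J and 952 in treated W. PDGFRA, a receptor for platelet-derived growth factor, fell from 10767 ± 3025 to 908 ± 566, with a log2 fold change of -3.81 and a limma adjusted p of 0.00220. The aminopeptidase ENPEP and the adhesion molecule VCAM1 fell, with log2 fold changes of -3.76 and -7.55. ENPEP had 12.8 to 219 normalized counts untreated and only 2.30 to 8.34 treated, with as few as 2 reads in a library. Its log2 change ran from -5.58 in W to -1.71 in J, so the size of its fall is uncertain. CD44, the hyaluronan receptor, had a log2 fold change of 0.43 (limma adjusted p of 0.137). ITGB1, the integrin chain known as CD29, had one of 0.91 (adjusted p of 0.0123), short of the fold threshold, and so had PDGFRB, with -0.71 (adjusted p of 0.0444). LEPR and NGFR were sought but were not among the named genes.

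Of 22 other tetraspanins, 1 was called higher and 3 lower, with a median log2 fold change of -0.29, and the block added TSPAN13 as lower. These 4 calls were 2 without horse D and 1 without horse W. TSPAN4, which is known from migrasomes, fell by 1.02 on the log2 scale, from 7578 ± 551 to 3733 ± 384 normalized counts (SD, n = 4), with a limma adjusted p of 8.88e-04. CD82 and ROM1 fell as well, with log2 fold changes of -1.42 and -1.44. TSPAN12 rose by 1.71 (limma adjusted p of 0.0221), although untreated J overlapped the treated libraries. CD151, a tetraspanin that binds laminin receptors, had a log2 fold change of 0.02 with an interval from -0.51 to 0.55. Among 20 tetraspanin partners and exosome genes 1 was called in each direction, with a median of -0.13, and none without horse D, 1 without L or W and 3 without J. RAB27B, a GTPase of vesicle secretion, fell by 2.47 on the log2 scale, and the integrin chain ITGA4 rose by 2.39.

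Of 22 other adhesion genes of the immunoglobulin superfamily, 2 were called higher and 3 lower, with a median log2 fold change of 0.10, and the block added CD47 as lower. These 5 calls were 2 without horse D and 3 without W. CADM4 and NECTIN1 rose by 2.28 and 1.36 on the log2 scale (limma adjusted p of 0.00814 and 0.0140), while JAM2 and CHL1 fell, with log2 fold changes of -3.13 and -3.69 (0.00742 and 0.0188). In the adenosine pathway around NT5E, 1 of 11 genes was called higher and 1 lower, with a median log2 fold change of -0.15. Neither was called without horse D or L, 1 gene was called without W, and 4 were called under total scaling or by DESeq2. SLC29A1, which carries adenosine into cells, fell from 13784 ± 2737 to 3834 ± 2065 normalized counts (SD, n = 4), with a log2 fold change of -2.04 and a limma adjusted p of 0.0148. ENTPD1 (CD39), which makes the AMP that NT5E uses, rose from 6.07 ± 4.84 to 90.3 ± 86.0 normalized counts, with a limma adjusted p of 0.0303.

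The list for the receptor complex of ENG also covers SMAD genes and other partners. Of its 13 tested genes, 3 were called lower and none higher, without and with the block, and the median log2 fold change was -0.45. Without horse W 2 genes were called. TGFBR3, the other large co-receptor of the family, fell most, with a log2 fold change of -5.505 (limma adjusted p of 1.02e-04). ACVRL1, the type I receptor that works with ENG, had a log2 fold change of -2.45 and TGFBR2 of -1.09, and both were called. Of the 19 genes of the NF-κB and interferon pathways none was called higher, and RELB, NFKBIZ and VCAM1 were called lower, with log2 fold changes of -1.11 and -1.77 for the first 2 and a median of -1.03 over the list. Without horse D, L or W 2 genes were called and without J 5, and DESeq2 called 9 and limma under total scaling 8. With the block NFKBIA, NFKBIE and IL1R1 were called lower as well.

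Of 11 other mural cell genes, 5 were called higher and 1 lower, without and with the block, and the median log2 fold change was -0.12. Without the block the 6 calls were 1 without horse D, 2 without W and 3 without L, and with it they were 6 whichever horse was left out. The genes that rose were LAMA4, a laminin chain that MCAM binds, and the muscle genes ACTA2, TAGLN, CNN1 and DES. ACTA2 rose from a mean of 84243 ± 55919 (SD, n = 4) to 370317 ± 160580 normalized counts, with a limma adjusted p of 0.0197. ANGPT1, a ligand that mural cells give to endothelium, fell by 3.54 on the log2 scale. RGS5, a defining mural marker, had 39.7 to 151 normalized counts untreated and 40.5 to 94.9 treated, and was not called.

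**Figure D5:**
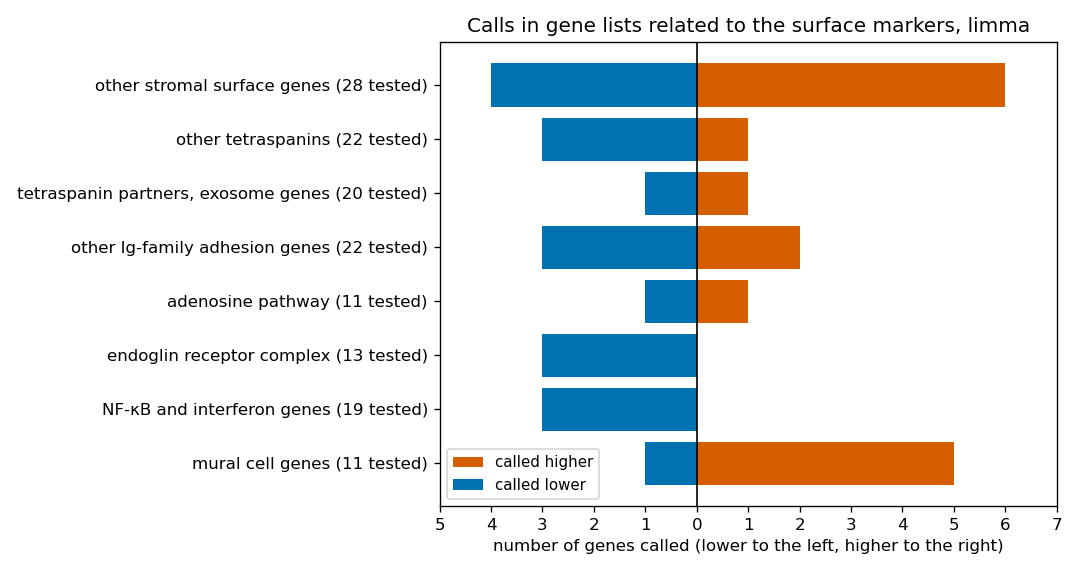
Number of genes called lower (left of the line) and higher (right) in each list of related genes, by limma without a horse term and with the 10 markers left out. The number tested stands beside each name, and VCAM1 is counted in 3 lists and CD82 in 2. The list labelled endoglin receptor complex, which also covers SMAD genes and other partners, and that of the NF-κB and interferon genes hold 3 calls each, all lower.

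Markers of other cells that a marrow culture can hold were also counted, but many that were sought had no row. Rows were found for 4 of 11 endothelial, 5 of 7 mural and 2 of 7 epithelial genes. For adipocytes, osteoblasts and cartilage they were found for 4 of 6, 5 of 6 and 2 of 5. PECAM1, VWF and TEK of endothelium and EPCAM, CDH1, KRT18 and KRT19 of epithelium were among those without a row. Of the 4 endothelial genes in the table, CDH5 had 6.09 to 23.8 normalized counts and KDR 1.01 to 40.7 over all libraries, and KDR and ERG were called higher. The summed level of these 4 genes ran from 46.7 to 411 untreated and from 549 to 989 treated. ERG alone ran from 25.4 to 368 untreated and from 471 to 928 treated. Of the 5 mural markers, ACTA2 and DES were called higher, and the sum, carried by ACTA2, ran from 32201 to 165464 untreated and from 189672 to 518098 treated. Of the 2 epithelial genes, KRT8 was called higher, from at most 0.942 to between 39.3 and 122 normalized counts, and the sum ran from 52.8 to 461 untreated and from 109 to 254 treated. The 4 adipocyte genes summed to 2467 to 8633 untreated and 1216 to 1755 treated, with ADIPOQ higher and CEBPA lower. The 5 osteoblast genes summed to 7644 to 32181 and 4624 to 56337, with none called, and the 2 cartilage genes to 277 to 1075 and 1074 to 1454, with SOX9 called higher. The 16 stromal genes, the 10 markers among them, summed to 370519 to 793823 untreated and 324304 to 402138 treated, and none was called higher. THY1, CD9, PDGFRA and LUM were called lower, LUM, which encodes the matrix proteoglycan lumican, with a log2 fold change of -1.80 and a limma adjusted p of 0.0120. Each of the 16 had at least 256 normalized counts in every library. In bulk RNA, fewer cells that carry a marker and less of its RNA per cell cannot be told apart.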

How the data were processed

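Poly(A)-selected RNA of 8 libraries was sequenced with paired ends. Per the labels and methods, the authors trimmed with Trimmomatic 0.36, aligned to EquCab 3.0 with STAR 2.5.2b, counted unique hits per gene with featureCounts (Subread 1.5.2) and normalized with DESeq2. The deposited values are a normalized signal, in which the count of each gene is scaled by the size factor of its library. The table held 15267 rows, and 1 without a gene name, with at most 0.0531% of a library, was left out. Dividing by the value of 1 read gave whole reads for 100% of the values (tolerance 0.001 reads), which were used for depth, DESeq2 1.42.0 and edgeR 4.0.16.

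The test was limma 3.58.1 with trend (R 4.3.3) on log2(normalized count + 1) for the genes that reached 10 normalized counts in 4 or more libraries. The stated methods name no donor term, so it had none. Libraries of the same letter came from the same horse and deviated together (correlations of 0.386 to 0.609, against a mean of -0.159 between horses), so the fit with the horse as a replicate block is given beside the results whose calls it changed. Replicates were cultures of separate horses. The fits were tested on simulated data.

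The markers and lists were chosen with earlier results of these data known. The genes named are the 10 markers, up to 6 called genes of each list by fold, TSPAN4, CD151, CD82, CD44, ITGB1, NGFR, LEPR, PDGFRA, PDGFRB and VCAM1, markers of other cells, and the 3 genes most like THY1, ENG and NT5E. Others are marked as picked later, as are the neighbours of THY1 and MCAM. Alternatives were other pseudocounts, filters, scalings, thresholds and tools, and each horse left out in turn. Fits that left out a horse asked for 3 libraries instead. Gene names are those of the table, and protein and promoter sequences were not used here.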

Additional observations from a re-analysis of the deposited data

Results flagged for a closer look

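In 8 of 86 groups of 4 libraries 1 library was flagged, because the gap between it and the other 3 made up most of the group's range. Among the markers these were the untreated library of horse J for ALCAM (11419 normalized counts, the others 496 to 1706) and for ICAM1 (25616, the others 1387 to 3647), and the treated library of horse W for ICAM1 (1943, the others 2492 to 2521). Among related genes, untreated J was also apart for RELB (908, the others 393 to 481) and TSPAN4 (8401, the others 7233 to 7355), and treated J for VCAM1 (166, the others 13.8 to 29.8) and ROM1 (104, the others 74.5 to 76.2). Untreated W held 2142 normalized counts of CHL1, the others 189 to 338. In 4 of the 8 cases the library was untreated J. A flag does not mean a large difference in level, as the values of TSPAN4 and of ICAM1 in treated W show. A chance rate of about 1 in 20 holds only for independent groups. The groups here share the same 8 libraries and include genes listed because they were called. The 8 of 86 can therefore not be compared with chance.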

How the results depend on the processing

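With 4 horses the number of markers called lower, 2 in the fit without a horse term, was 1 with upper-quartile scaling and without the trend, where THY1 was lost at adjusted p of 0.0531 and 0.0629 from limma, and 1 at an adjusted p under 0.01, which left CD9. It was 4 under total scaling, with and without the replicate block, where MCAM and CD81 joined. The count ran from 0 to 3 when a horse was left out, in fits with and without the block. It was 0 without horse D and no block, and 1 without horse W and no block. The number called higher was 1 with DESeq2 and the horse, and ran from 0 to 1 with a horse left out, in each case through ALCAM. The log2 fold change of NT5E ran from -0.222 to 0.0762 with a horse left out and turned positive without horse D. In the lists of related genes 32 genes were called, all of them also among the 39 with the replicate block, 16 at an adjusted p under 0.01 and 14 to 47 with a horse left out. Over all genes, 27.6% of the calls were higher under total scaling against 48.8% with the deposited normalization. In the 22 alternative fits of each marker, CD63, CSPG4, ENG and ICAM1 kept their direction and were never called. The cause of these changes was not tested. Fits that leave out a horse rest on 3 horses, and those with the block were chosen after seeing the data.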
